A study of Mus musculus with 12 samples.

Results

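The comparison described here set wounds that received either of 2 bacteria against wounds that received vehicle, and asked which genes both bacterial groups moved to the same side of vehicle. All 12 libraries of the series entered it: 4 from wounds given Alcaligenes faecalis, 4 from wounds given Staphylococcus aureus and 4 from vehicle wounds. The contrast was the average of both bacterial groups, each with equal weight, minus vehicle, in a single model with a mean for each of the 3 groups, so it was defined by the labels and not by measured values. The 12 mice were all B6.BKS(D)-Leprdb/db animals, whose leptin receptor is defective in every cell and which are obese and diabetic. Each had punch wounds through the full thickness of the back skin, and this skin was frozen on day 3. Each library was read as 1 mouse, since the series' design text gives 4 mice per group; the sources used here give neither the age nor the sex of the mice. The labels describe the vehicle as phosphate-buffered saline with 10% glycerol and mention glycerol for the vehicle alone, so the presence of bacteria and the absence of glycerol cannot be told apart in any value below. There was no group with an unwounded back or with killed bacteria.

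Skin cells and wound leukocytes detect bacteria through Toll-like receptors and related sensors of cell-wall lipids, lipoproteins and nucleic acids. A. faecalis is Gram-negative and carries lipopolysaccharide, the ligand of Toll-like receptor 4; S. aureus is Gram-positive, and its lipoproteins are ligands of Toll-like receptor 2. Both receptors signal through the adaptor MyD88 to the transcription factor NF-kB, which raises cytokines, chemokines that draw neutrophils and monocytes, and adhesion molecules on blood vessels. In a healing wound this inflammatory phase gives way to repair, in which macrophages change their products, keratinocytes at the edge migrate over a new laminin-rich basement membrane, and vessels grow.

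Libraries held 38.4 to 71.3 M (mega) estimated counts. Levels are given as CPM, counts per M of library size after TMM scaling (trimmed mean of M-values). The skin keratins Krt14 and Krt5 averaged 791 and 425 CPM in vehicle wounds, so epidermal RNA was present. Vehicle replicate 3 stood apart from the other 11 libraries: the mean centred log2 level of 20 adipocyte genes was 2.14 in it, against -0.201 to 0.0551 in the other vehicle libraries, and that of 20 neutrophil genes was -2.56, against -1.41 to 0.69. Values without it are therefore given beside the results it touches. Because the tissue was sequenced in bulk, fewer cells of a type and less RNA per cell cannot be told apart.

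No gene passed the test of the average of both bacterial groups against vehicle. With edgeR's quasi-likelihood test and Benjamini-Hochberg adjustment over the 18218 genes tested, 0 genes (0%) had an adjusted p under 0.05 in the average contrast, and the smallest adjusted p was 0.175, shared by 12 genes. At an unadjusted p under 0.05 there were 2384 genes (13.1%), 825 higher (4.53%) and 1559 lower (8.56%) with bacteria. The count of called genes depended on the test: limma-voom also called 0, with 2308 at an unadjusted p under 0.05, whereas the DESeq2 Wald test called 230, of which 104 were higher and 126 lower and 217 lay on the same side of vehicle in both groups. It depended on single vehicle libraries too, since edgeR called 14 genes without vehicle replicate 2, 3 without vehicle replicate 4 and 0 without vehicle replicate 3.

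Against the same 4 vehicle libraries, A. faecalis alone differed in 2 genes (0.011%) and S. aureus alone in 1246 (6.84%), and the bacterial groups differed from each other in 2310 (12.7%), all at an adjusted p under 0.05 with edgeR. No gene was called in both single comparisons on the same side. Without any threshold, both groups lay on the same side of vehicle in 10582 genes (58.1%), above it in 4299 (23.6%) and below it in 6283 (34.5%). Both single comparisons share the vehicle libraries, so a vehicle library that is high or low moves both in the same direction. Without vehicle replicate 3 the genes with both groups above vehicle numbered 4701 (25.6% of 18385 tested) and those below 4482 (24.4%), and the genes at an unadjusted p under 0.05 were 737 higher (4.01%) and 755 lower (4.11%). The excess of lower genes seen with all 12 libraries was thus not present without that library.

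In 76 genes (0.417%) every one of the 8 bacterial libraries lay on one side of all 4 vehicle libraries, above in 30 (0.165%) and below in 46 (0.252%). Of these, 15 were predicted genes without a standard name, and 51 had a standard name and averaged at least 1 CPM. The split between directions moved with the scaling: 39.5% of the non-overlapping genes were higher under TMM and 53.2% (41 of 77) under DESeq2 size factors. The 24 of these genes chosen for description, 12 in each direction by smallest unadjusted p, are given as not called. Some genes separate 8 libraries from 4 by chance alone, and how many would do so was not estimated. The count of 76 is therefore no evidence of a common response, and the genes below are a description of these libraries.

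Vcam1 and Cxcl9 are described first, for their known part in drawing leukocytes into tissue. Vcam1 encodes vascular cell adhesion molecule 1, to which monocytes and lymphocytes bind before they leave the blood. Its level was 36.8, 33.1, 21.5 and 19.1 CPM in vehicle replicates 1 to 4, 77.6, 37.9, 41.1 and 52.9 CPM with A. faecalis, and 66.3, 51.9, 58.1 and 47.8 CPM with S. aureus. All 8 bacterial libraries lay above the highest vehicle library, the second A. faecalis library by only a small margin. The average difference was 0.97 on the log2 scale (SE 0.228, edgeR adjusted p = 0.237), made of 0.92 with A. faecalis (adjusted p = 0.458) and 1.02 with S. aureus (adjusted p = 0.0375). Over the alternatives the average ranged from 0.84 to 1.16 and its adjusted p from 0.00536, by the DESeq2 Wald test, to 0.605. Under upper-quartile scaling the vehicle and bacterial libraries of Vcam1 overlapped.

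Cxcl9 encodes a chemokine that interferon-gamma induces and that attracts T cells through the receptor CXCR3. It was at 13.8, 29.8, 28.4 and 9.6 CPM in vehicle wounds, 66.6, 37.9, 38.4 and 50.3 CPM with A. faecalis, and 104, 53, 88.6 and 36.8 CPM with S. aureus. The lowest bacterial library lay above the highest vehicle library, and the S. aureus libraries spread most. The average difference was 1.52 on the log2 scale (SE 0.367, edgeR adjusted p = 0.237), with 1.24 for A. faecalis (adjusted p = 0.539) and 1.79 for S. aureus (adjusted p = 0.0271); the difference between the bacteria was not called (adjusted p = 0.398). Without vehicle replicate 3 the average was 1.73. The related interferon-gamma-inducible chemokines did not share the pattern: Cxcl10 averaged 9.61 CPM in vehicle, 10.0 CPM with A. faecalis and 24.7 CPM with S. aureus, and Cxcl11 averaged 2.16, 1.69 and 1.92 CPM.

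The 250 bases before the start of Cxcl9 are shown because this gene had the larger difference of the pair and its promoter is a textbook target of NF-kB. They lie at chr5:92328080-92328329 on the minus strand of GRCm38.p6, from the RefSeq promoter table, a build other than the one named for the deposited counts. Capitals mark matches, on either strand, to the NF-kB-type motif GGGANTTNC, a form of 9 letters chosen after the sequence had been read.
Cxcl9: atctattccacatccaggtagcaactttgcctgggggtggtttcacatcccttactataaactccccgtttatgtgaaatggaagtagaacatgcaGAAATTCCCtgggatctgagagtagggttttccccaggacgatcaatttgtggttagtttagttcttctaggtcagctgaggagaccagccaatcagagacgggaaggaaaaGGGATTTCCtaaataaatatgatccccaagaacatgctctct
The matches do not overlap each other, and their first bases lie 154 and 42 bases before the start. Of the 12248 tested genes with a promoter in the table, 4.05% held it. Of the 24 described genes 14 had an entry; 2 of them held the motif (Cxcl9 and Cox7a1). A match describes letters, not binding.

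**Figure D1:**
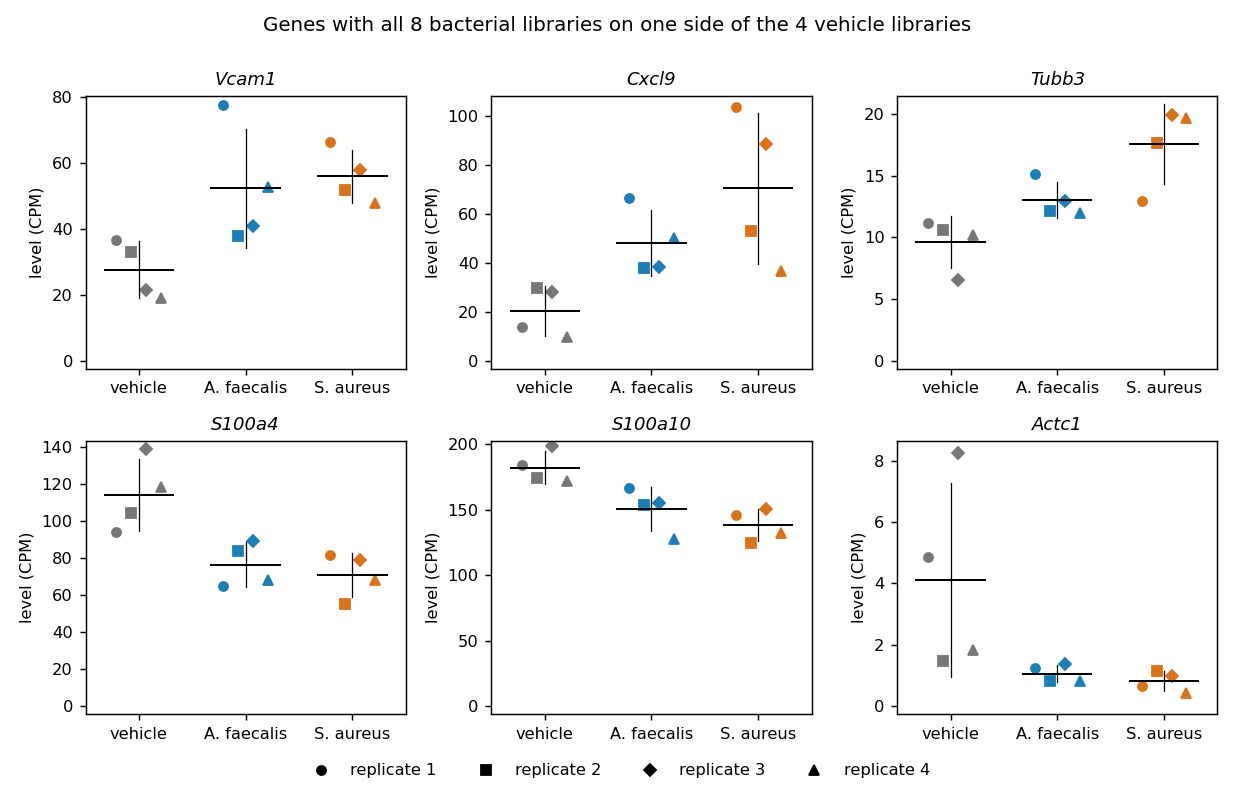
Level of 6 genes (CPM, linear axis from 0) in each library of the vehicle, A. faecalis and S. aureus groups; marker shape gives the replicate number, horizontal bars the mean and vertical lines 1 SD of 4 libraries. With TMM scaling, all 8 bacterial libraries of each panel lie above (Vcam1, Cxcl9, Tubb3) or below (S100a4, S100a10, Actc1) the 4 vehicle libraries (Vcam1 not under upper-quartile scaling), and none of the 6 genes was called in the average contrast.

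The other 10 described genes above vehicle differed less. Tmem173, the older name of STING, an adaptor that responds to cytosolic DNA and cyclic dinucleotides, averaged 0.36 higher on the log2 scale, but the bacteria differed (0.20 with A. faecalis, 0.53 with S. aureus; edgeR adjusted p of the difference 0.0496). Tubb3, a tubulin best known from neurons, averaged 0.65 higher. The splicing factor Sfswap (0.37), Cnot3 of the mRNA deadenylase complex (0.26), Wdr77 of the methylosome (0.20), the lipid acyltransferase Agpat1 (0.19), Cebpz (0.25), the carboxypeptidase inhibitor Lxn (0.25), Cnbd2 (0.45) and Fam206a (0.21) made up the rest. Their edgeR adjusted p ranged from 0.201 to 0.295. Tmem173, Wdr77 and Cnbd2 no longer had separate libraries under upper-quartile scaling.

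Below vehicle, 2 S100 calcium-binding proteins stood among the 12. S100a4, a protein of motile fibroblasts and leukocytes, was at 94.2, 105, 139 and 119 CPM in vehicle wounds, 64.8, 83.9, 89.4 and 68.2 CPM with A. faecalis, and 81.7, 55.5, 79 and 68 CPM with S. aureus. Every bacterial library lay below the lowest vehicle library, and the bacterial groups overlapped each other. Its average difference was -0.63 (SE 0.132, edgeR adjusted p = 0.201), with -0.58 for A. faecalis and -0.68 for S. aureus. S100a10, the partner of annexin A2, was at 172 to 199 CPM in vehicle, 127 to 166 CPM with A. faecalis and 124 to 151 CPM with S. aureus, an average difference of -0.34 (adjusted p = 0.244). Other S100 genes, looked at after their values had been seen, were divided in the average. S100a8 (0.50), S100a11 (0.42), S100a9 (0.18), S100a7a (0.11) and S100a6 (0.11) lay above vehicle. S100a14 (-0.25), S100a3 (-0.18), S100a1 (-0.14), S100a16 (-0.09) and S100a13 (-0.06) lay below it.

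Actc1, the cardiac actin that immature skeletal muscle also makes, was at 4.88, 1.48, 8.25 and 1.84 CPM in vehicle wounds, 0.806 to 1.36 CPM with A. faecalis and 0.437 to 1.16 CPM with S. aureus. Its average difference was -2.14 (SE 0.417, edgeR adjusted p = 0.201) and -1.54 without vehicle replicate 3, the highest library. Ndnf, a secreted neuron-derived factor, averaged -1.34 and -0.74 without that library. Others below vehicle were Kctd9 (-0.35), the fatty acid transporter Slc27a3 (-0.39), the TGF-beta-binding matrix protein Ltbp1 (-0.34), the muscle form of a cytochrome oxidase subunit Cox7a1 (-0.65), Foxn3 (-0.32), Tusc1 (-0.38) and Car8 (-0.56). Foxn3 and Tusc1 lost their separation under both other scalings, and Ltbp1 under upper-quartile scaling.

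Genes were also followed in 41 lists of pathways and cell types, with 704 distinct members tested. None of these members was called in the average contrast, so each list is described by its counts at an unadjusted p under 0.05 and its median log2 difference, to be read against 4.53% higher and 8.56% lower over all genes and a median of -0.02 (-0.03 for A. faecalis and -0.04 for S. aureus).

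Sensors of bacteria were split. Of 32 pattern recognition genes, 17 had both groups above vehicle, 2 below and 13 on opposite sides; 1 was higher and 0 lower at an unadjusted p under 0.05, and the median was 0.14. Without vehicle replicate 3, 11 had both groups above vehicle, 3 below and 18 on opposite sides, and the median was 0.05 (0.12 for A. faecalis and 0.01 for S. aureus). Tlr4, the lipopolysaccharide receptor, was at 133 to 147 CPM in vehicle, 133 to 176 CPM with A. faecalis and 131 to 172 CPM with S. aureus, an average difference of 0.12 with a 95% interval of -0.07 to 0.32. Tlr2, the lipoprotein receptor, was at 61.2, 146, 40.4 and 157 CPM in vehicle and 88.4 to 196 CPM in the 8 bacterial libraries, a difference of 0.45 with an interval of -0.33 to 1.23. Leaving out 1 vehicle library moved it to 0.20 (without the third), 0.29 (without the first), 0.70 (without the second) or 0.76 (without the fourth). The vehicle libraries of Tlr2 thus differed among themselves by more than the groups. Both receptors were named for their role and not by the rule. Tlr1, which pairs with Tlr2, had an average difference of 0.42 (edgeR adjusted p = 0.395), and 0.24 without vehicle replicate 3. Tirap, the adaptor that brings MyD88 to both receptors, had 0.41 (adjusted p = 0.354), with 0.15 for A. faecalis and 0.68 for S. aureus; without that library these were 0.29, 0.01 and 0.56.

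NF-kB targets and feedback inhibitors had 8 of 19 members with both groups above vehicle, 0 below and 11 on opposite sides, with 1 higher and 1 lower at an unadjusted p under 0.05. Their median of 0.23 became 0.01 without vehicle replicate 3. Tnfaip2, a TNF-induced gene, averaged 0.49 higher with near-equal values for both bacteria (0.46 and 0.52; edgeR adjusted p of the average 0.38); without that library the average was 0.32. Icam1, an adhesion molecule for neutrophils, split: it averaged 77.9 CPM in vehicle, 123 CPM with A. faecalis and 70.5 CPM with S. aureus, and the bacterial groups differed (adjusted p = 0.016). Tnip3, an inhibitor of NF-kB signalling, split in the same way, at 4.11 CPM in vehicle, 5.18 CPM with A. faecalis and 1.31 CPM with S. aureus (adjusted p = 0.00284).

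Cytokines of the IL-1, IL-6, TNF and colony-stimulating families were on opposite sides of vehicle in 25 of 31 members, and 16 of 31 differed between the bacteria. Csf1, the growth factor of macrophages, was among the 6 with both groups above vehicle, at 125 to 138 CPM in vehicle, 137 to 163 CPM with A. faecalis and 155 to 167 CPM with S. aureus, an average difference of 0.22 (SE 0.0633, edgeR adjusted p = 0.273). Tnfrsf1a, the main TNF receptor, averaged 0.23 higher, but with 0.07 for A. faecalis and 0.39 for S. aureus, which differed (adjusted p = 0.0138). The IL-17 receptor subunit Il17ra had the same form, 0.18 and 0.96 (adjusted p of the difference 0.0169), or 0.04 and 0.82 without vehicle replicate 3. Of 29 chemokines, 7 had both groups above vehicle, 8 below and 14 on opposite sides, with a median of 0.01.

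Interferon-stimulated genes lay on opposite sides in 26 of 29 members, and 16 differed between the bacteria. Gbp2, a guanylate-binding protein, was at 51 to 96.5 CPM in vehicle, 60.3 to 86.4 CPM with A. faecalis and 119 to 315 CPM with S. aureus, so its average of 0.78 came from S. aureus alone (-0.07 and 1.62, or 0.10 and 1.79 without vehicle replicate 3; edgeR adjusted p of the difference 0.005). The counts of this list grew without vehicle replicate 3, to 7 higher at an unadjusted p under 0.05 and 7 members with both groups above vehicle, with a median of 0.28.

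Among acute phase proteins, 5 of 15 were higher and 0 lower at an unadjusted p under 0.05, with a median of 0.21 (0.07 without vehicle replicate 3). Of these 15, 4 had both groups above vehicle, 2 below and 9 on opposite sides, and 5 differed between the bacteria. Cp, the copper-binding ferroxidase ceruloplasmin, was at 127, 188, 123 and 109 CPM in vehicle, 144, 205, 187 and 300.3 CPM with A. faecalis, and 267, 238, 205 and 168 CPM with S. aureus. One vehicle library reached into the range of both bacterial groups. The average difference was 0.65 (SE 0.208, edgeR adjusted p = 0.295), with 0.61 and 0.68 for the single groups. Saa1, a serum amyloid A protein, averaged 1.56 higher (1.71 and 1.42; adjusted p = 0.354), though from 0.221 to 6.17 CPM within the vehicle group. Serpina3g, a serine protease inhibitor, was mainly higher with S. aureus (0.35 and 1.77; adjusted p of the difference 0.00344), and the metalloreductase Steap4 averaged 0.39 higher (adjusted p = 0.374).

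Antimicrobial proteins lay on opposite sides of vehicle in 14 of 20 members. Camp, the cathelicidin of neutrophils and keratinocytes, lay above vehicle in both groups: it was at 0.312, 0.709, 0.0947 and 0.528 CPM in vehicle, 0.507, 2.05, 0.998 and 1.76 CPM with A. faecalis, and 1.31, 4.63, 1.24 and 1.82 CPM with S. aureus. Only the first A. faecalis library lay within the vehicle range. The average difference was 2.09 (SE 0.58, edgeR adjusted p = 0.268), and 1.76 without vehicle replicate 3, the lowest library. Camp also belongs to the neutrophil list, in which 10 of 20 members had both groups above vehicle and 10 were on opposite sides. The list median was 0.06 for A. faecalis and 1.5 for S. aureus. Without vehicle replicate 3 these counts were 8 and 12, and the medians -0.05 and 1.23. Ltf, lactoferrin of neutrophil granules, had an average difference of 1.60 (0.48 and 2.72), and of 1.25 (0.12 and 2.38) without vehicle replicate 3. Rnase4, an antimicrobial ribonuclease, averaged -0.30 (adjusted p = 0.268).

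**Figure D2:**
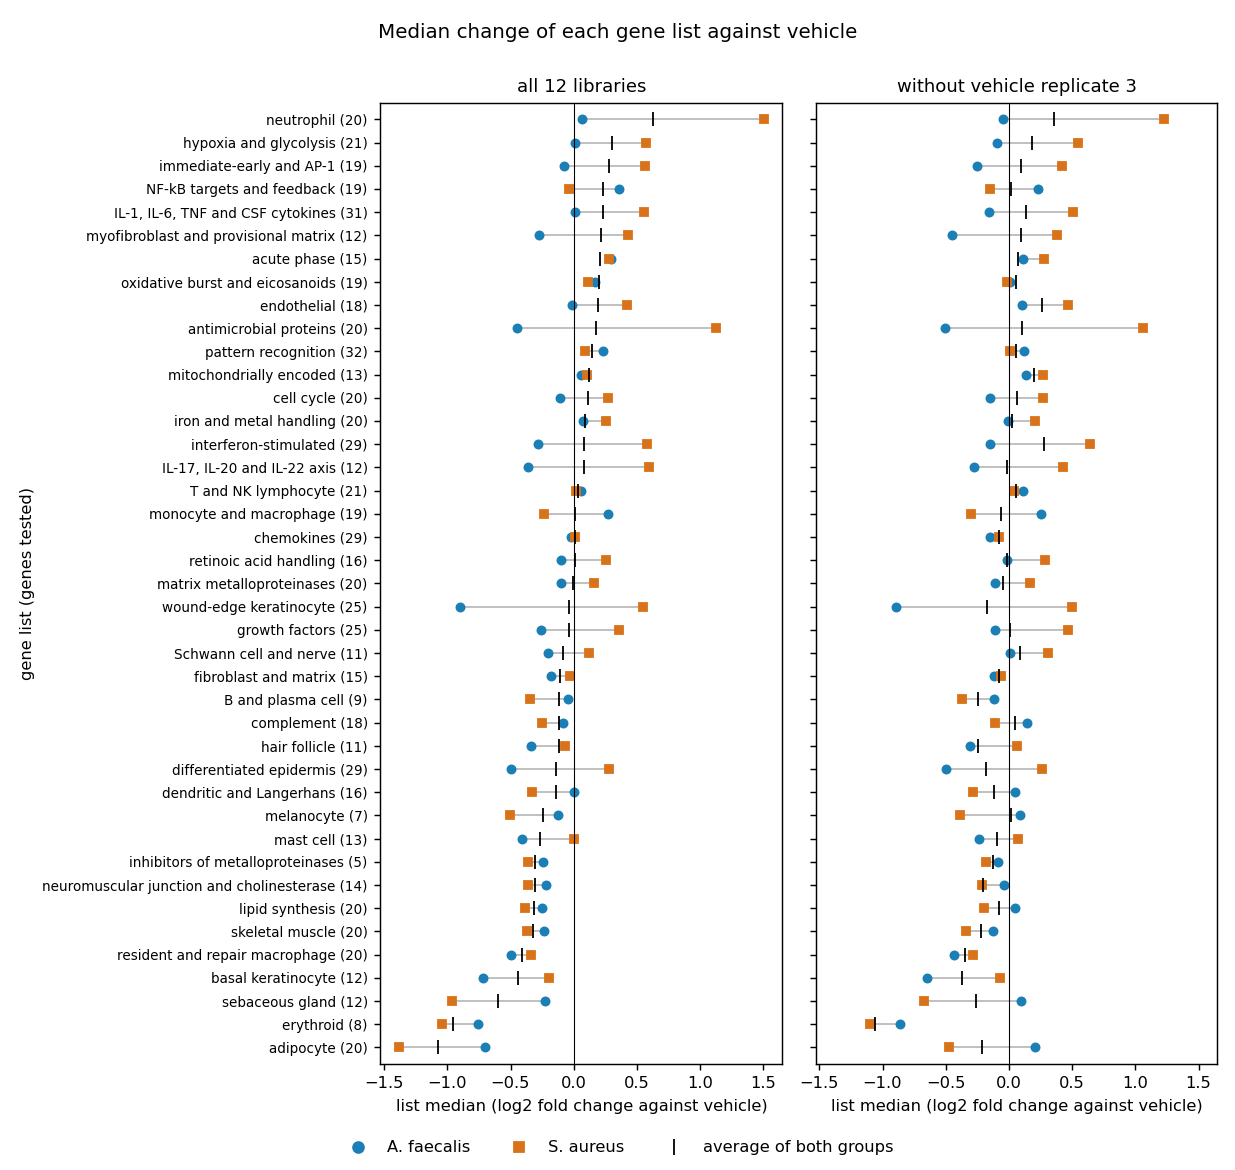
Median log2 difference from vehicle of each of 41 gene lists (numbers of genes tested in brackets) for A. faecalis (circles), S. aureus (squares) and the average of both (vertical ticks), with all 12 libraries on the left and without vehicle replicate 3 on the right. The adipocyte median moved from -1.07 to -0.21 when that library was left out, while the erythroid median (-0.96 and -1.06) and the resident and repair macrophage median (-0.41 and -0.35) moved little.

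The lists whose members lay below vehicle in both groups differed in how far they rested on vehicle replicate 3. Adipocyte genes had both groups below vehicle in 20 of 20 members, 15 of them lower at an unadjusted p under 0.05, with a median of -1.07. Without that library 1 was lower, 4 had both groups below vehicle and 15 lay on opposite sides, and the median was -0.21. Lep, the hormone leptin, was at 398, 227, 2207 and 328 CPM in vehicle, 279 to 474 CPM with A. faecalis and 101 to 282 CPM with S. aureus. Its difference of -1.74 (edgeR adjusted p = 0.277) became -0.41 without the third vehicle library, with 0.14 for A. faecalis and -0.96 for S. aureus. Car3, a carbonic anhydrase of fat and muscle, changed likewise from -2.03 to -0.51, the complement factor Cfd (adipsin) from -1.30 to -0.28 and the glycerol channel Aqp7 from -1.22 to -0.56. Lipid synthesis genes had 8 of 20 lower and a median of -0.31, and 1 lower and a median of -0.08 without that library; for skeletal muscle genes the counts were 10 and 4 of 20, and the medians -0.32 and -0.22. Sebaceous gland genes had both groups below vehicle in 10 of 12 members and a median of -0.60, and in 4 of 12 with a median of -0.26 without that library. The reverse held for transcripts of the mitochondrial genome, of which 1 of 13 was higher at an unadjusted p under 0.05 with all libraries (median 0.12) and 7 of 13 without it (median 0.20).

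Erythroid genes lay below vehicle with and without vehicle replicate 3. With all libraries 5 of 8 were lower at an unadjusted p under 0.05, 6 had both groups below vehicle and the median was -0.96; without it the counts were also 5 and 6 and the median was -1.06. Hbb-bs, an adult beta-globin, was at 23.2, 20.0, 7.87 and 19.6 CPM in vehicle, 11, 8.41, 8.62 and 5.98 CPM with A. faecalis, and 7.21, 4.42, 7.29 and 8.2 CPM with S. aureus. The third vehicle library alone fell within the bacterial range. The average difference was -1.22 (SE 0.256, edgeR adjusted p = 0.201), and -1.45 (adjusted p = 0.138) without that library. Alas2, the erythroid enzyme that begins haem synthesis, was at 43.7, 45.1, 36.9 and 33.4 CPM in vehicle, 40.0, 22.6, 24.6 and 18.4 CPM with A. faecalis, and 23.8, 17.2, 18.5 and 21.2 CPM with S. aureus. Its difference was -0.79 (SE 0.177, adjusted p = 0.224), and only the first A. faecalis library overlapped vehicle. Hba-a2 averaged -1.13 and Hbb-bt -1.15, although reads of the paired globin genes are hard to tell apart and may be divided between them. Slc4a1, the red cell anion exchanger, did not follow, with 0.87 for A. faecalis and -0.09 for S. aureus.

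Resident and repair macrophage genes gave near-equal counts with and without that library. With all libraries 10 of 20 were lower and 0 higher at an unadjusted p under 0.05, 9 had both groups below vehicle, 1 above and 10 on opposite sides, and the median was -0.41. Without vehicle replicate 3 again 10 were lower and 9 had both groups below vehicle, with 0 above and 11 on opposite sides, and the median was -0.35. Of the 20 members, 8 differed between the bacteria. The mean centred log2 level of the list was 0.224, -0.121, 0.414 and 0.759 in vehicle replicates 1 to 4. It was -0.542 to -0.131 with A. faecalis and -0.236 to 0.24 with S. aureus, so vehicle and S. aureus overlapped. The list was not recounted without vehicle replicate 4, its highest library. General monocyte and macrophage genes had a median of 0.01 (0.27 for A. faecalis and -0.23 for S. aureus). Mgl2, a galactose-binding lectin of dermal macrophages and dendritic cells, was at 1.2, 0.517, 5.13 and 1.46 CPM in vehicle, 0.609, 0.431, 0.554 and 0.522 CPM with A. faecalis, and 0.496, 0.328, 0.356 and 0.323 CPM with S. aureus. The second vehicle library lay within the A. faecalis range. Its difference was -2.22 (SE 0.453, edgeR adjusted p = 0.201), and -1.24 without the third vehicle library. Ccl24, an eosinophil-attracting chemokine of IL-4-stimulated macrophages, averaged 5.42 CPM in vehicle, 1.79 CPM with A. faecalis and 2.49 CPM with S. aureus, a difference of -1.36. This rested in large part on the fourth vehicle library, at 12.3 CPM against 2.57 to 4.12 CPM in the other 3: without it the difference was -0.57, and without the third it was -1.46.

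Other members of this macrophage list gave smaller or less even differences. Cbr2, a carbonyl reductase of resident macrophages, was at 55.9 to 108 CPM in vehicle, 55.6 to 74.1 CPM with A. faecalis and 51.1 to 79.4 CPM with S. aureus, an average difference of -0.51 (edgeR adjusted p = 0.298). Retnla, a secreted protein of IL-4-stimulated macrophages, was at 0.833, 1.72, 35.9 and 11.3 CPM in vehicle and at 0 to 1.03 CPM with A. faecalis and 0.038 to 6.9 CPM with S. aureus. Only 2 vehicle libraries were high, and its difference of -3.12 (SE 1.01) was -1.68 without the third. Cbr2 and Retnla were described after their values had been seen. Langerin, Cd207, of epidermal Langerhans cells and some dermal dendritic cells, belongs to another list, of dendritic and Langerhans cell genes. It had no overlap between bacterial and vehicle libraries (0.766 to 1.51 CPM in vehicle, 0.364 to 0.617 CPM with A. faecalis and 0.304 to 0.705 CPM with S. aureus). Its average difference was -0.95 (edgeR adjusted p = 0.268). That list was divided: 6 of 16 members had both groups below vehicle, 1 above and 9 on opposite sides, with a median of -0.14. At an unadjusted p under 0.05, 2 were lower and 1 higher, H2-Eb1 (0.84).

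**Figure D3:**
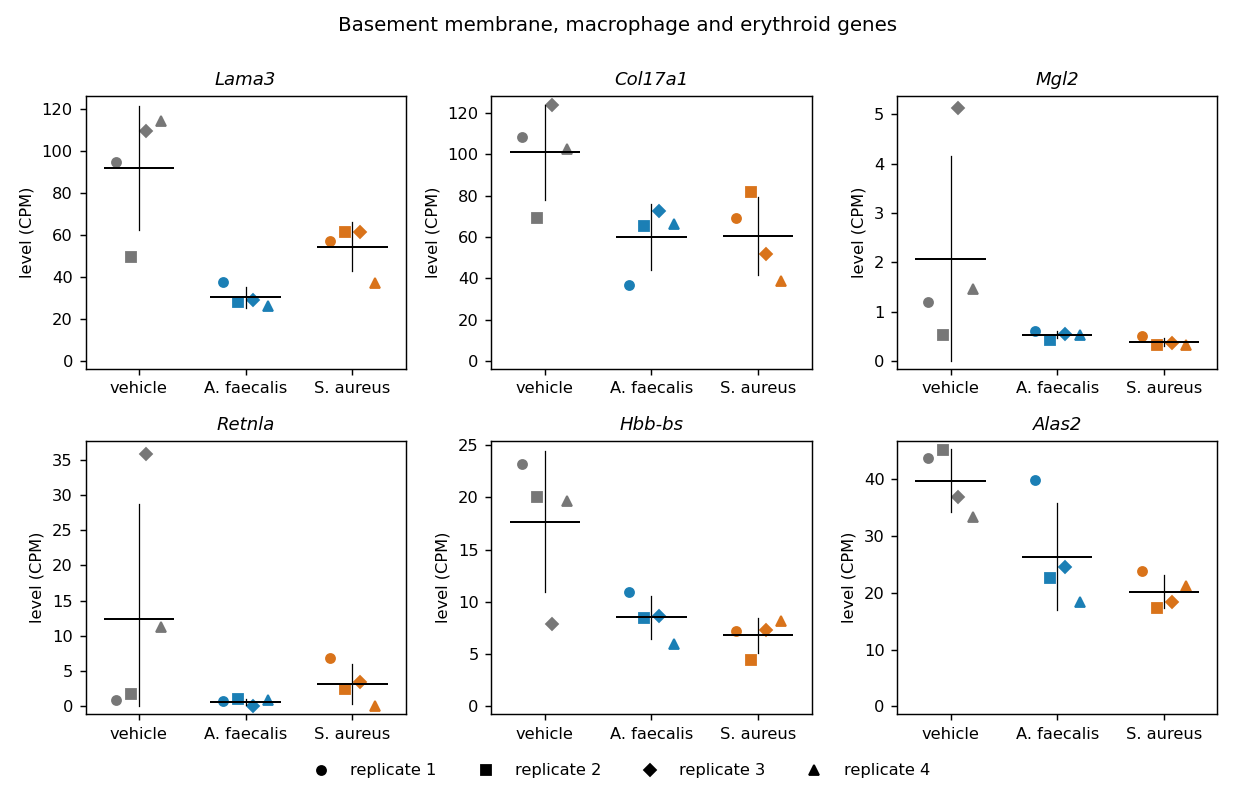
Level of 6 genes (CPM, linear axis) in each library of the 3 groups; marker shape gives the replicate number, horizontal bars the mean and vertical lines 1 SD of 4 libraries, drawn down to no lower than 0. The second vehicle library is the low one for Lama3, Col17a1 and Mgl2, and the third is the low one for Hbb-bs and the high one for Mgl2 and Retnla.

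Among the 12 genes at the lowest adjusted p of the average contrast was Lama3, which encodes a chain of laminin-332, the basement membrane protein that anchors keratinocytes and that migrating wound-edge cells lay down. Its level was 94.6, 49.4, 109.7 and 114 CPM in vehicle, 37.7, 28.1, 28.9 and 26.3 CPM with A. faecalis, and 57.1, 61.6, 61.5 and 37.1 CPM with S. aureus. The second vehicle library fell within the S. aureus range, and the fourth S. aureus library within the A. faecalis range. The difference was -1.18 (SE 0.204, edgeR adjusted p = 0.175), and the bacterial groups differed in size (-1.60 and -0.76; adjusted p = 0.0441). Without vehicle replicate 2 Lama3 was called, with a difference of -1.37 and an adjusted p of 0.0187; over all alternatives its adjusted p ranged from 0.000206 to 0.605. Lamb3, which encodes another chain of the same laminin, did not follow and was at 49.5 to 88.6 CPM in vehicle, 33.2 to 77.3 CPM with A. faecalis and 54.8 to 77 CPM with S. aureus.

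Basal keratinocyte genes, of which only some hold the cell to this membrane, had 5 of 12 lower and 0 higher at an unadjusted p under 0.05. In 9 of them both groups lay below vehicle. The list median was -0.44 (-0.37 without vehicle replicate 3, with 2 lower). Col17a1, a collagen of hemidesmosomes, averaged -0.75 with equal shares (-0.75 and -0.74; edgeR adjusted p = 0.275), and its partner Itgb4 -0.72 (-0.86 and -0.58; adjusted p = 0.298). Krt15, a keratin of basal and follicular stem cells, was at 12.9 to 51.7 CPM in vehicle, 7.25 to 26.4 CPM with A. faecalis and 0.533 to 2.14 CPM with S. aureus. Its average of -2.24 therefore came from S. aureus (-0.24 and -4.23; adjusted p of the difference 0.00257). The third vehicle library was the high one, and without it the A. faecalis difference turned to 0.46, while that of S. aureus was -3.52. Flg2, a filaggrin of the outer epidermis, was of the same kind (-0.66 and -2.99; adjusted p of the difference 0.0093), and without that library its differences were -0.08 and -2.41. Wound-edge keratinocyte genes lay on opposite sides of vehicle in 20 of 25 members, 19 differed between the bacteria, more than in any other of the 41 lists, and the medians were -0.90 and 0.55. Itgb6, an integrin subunit of migrating keratinocytes, averaged 8.04 CPM in vehicle, 3.64 CPM with A. faecalis and 7.97 CPM with S. aureus.

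Vessel genes were higher in the average mainly through S. aureus. Of 18 endothelial genes 7 were higher and 0 lower at an unadjusted p under 0.05, and 8 had both groups above vehicle; the medians were -0.01 for A. faecalis and 0.42 for S. aureus. Without vehicle replicate 3, 15 had both groups above vehicle and the medians were 0.10 and 0.47. Selp, P-selectin, which slows leukocytes on activated vessels, was at 27.9 to 51 CPM in vehicle, 35.6 to 42.4 CPM with A. faecalis and 87.9 to 129.8 CPM with S. aureus. Vehicle and A. faecalis overlapped fully, and the difference between the bacteria was called (edgeR adjusted p = 0.00104). E-selectin, Sele, was similar (0.05 and 0.88, edgeR adjusted p of the difference 0.00948). So was Kit, a receptor of mast cells and melanocytes (-0.01 and 1.20, edgeR adjusted p of the difference 0.000759). The lists of these cell types did not share this difference. Of 13 mast cell genes, which include Kit, 1 was higher and 2 lower at an unadjusted p under 0.05. Their medians were -0.41 for A. faecalis and 0.004 for S. aureus, and those of 7 melanocyte genes -0.12 and -0.51. Among Vcam1, Icam1, Selp and Sele, Vcam1 alone had no overlap between bacterial and vehicle libraries with TMM scaling. Vcam1 had been chosen for that lack of overlap, so this does not set it apart from the others, and it overlapped under upper-quartile scaling.

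T cell genes gave small counts. Of 21 T and NK lymphocyte genes 2 were higher and 0 lower at an unadjusted p under 0.05, and the median was 0.03. Cd8b1, the CD8 beta chain, lay above vehicle in both groups at low levels: 0.126 to 0.345 CPM in vehicle, 0.301 to 0.962 CPM with A. faecalis and 0.323 to 0.656 CPM with S. aureus (average difference 1.30, SE 0.372, edgeR adjusted p = 0.273). Cd4, the co-receptor of helper T cells, differed between the bacteria (adjusted p = 0.00283): it was at 6.48 to 7.62 CPM in vehicle, 10.5 to 14.4 CPM with A. faecalis and 5.72 to 8.83 CPM with S. aureus.

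**Figure D4:**
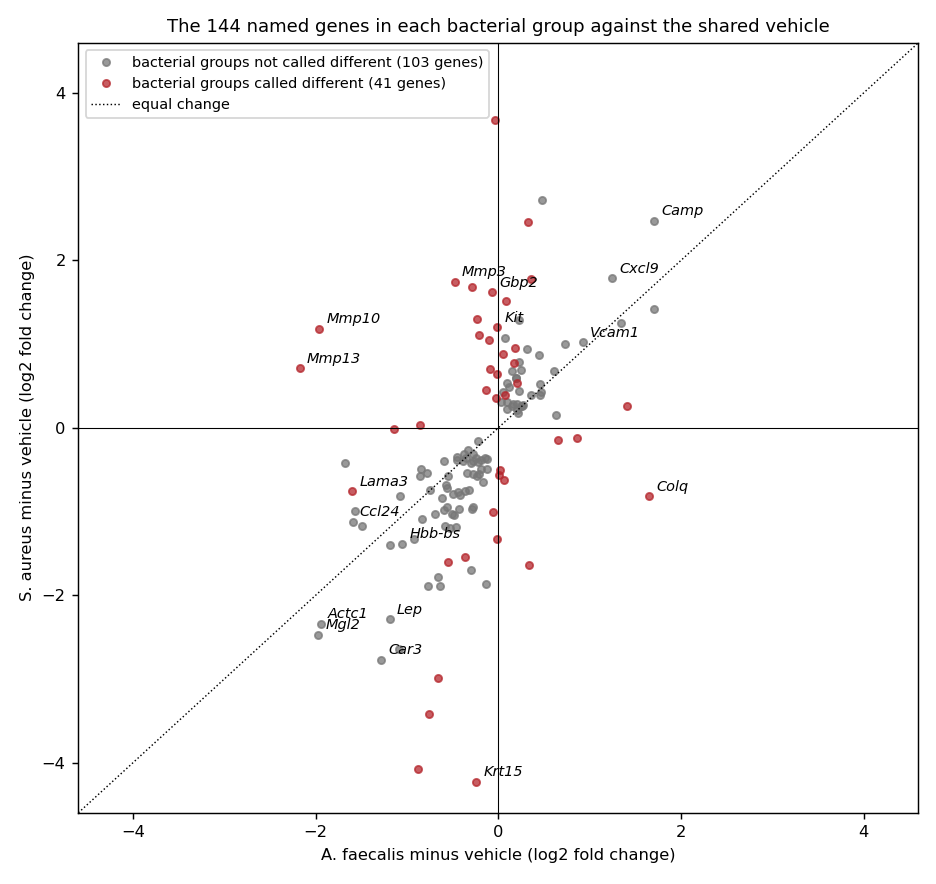
Log2 difference from vehicle with A. faecalis (horizontal) and with S. aureus (vertical) for the 144 genes named by rule, of which 41 (red) were called different between the bacteria and 103 (grey) were not; the dotted line marks equal differences. Both axes use the same 4 vehicle libraries, so points near the line are no independent evidence; Vcam1 (0.92, 1.02) lies close to the line and Mmp10 (-1.96, 1.18) on opposite sides of vehicle.

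The average contrast does not see genes that the bacteria moved in opposite directions. Of the 144 named genes 41 differed between the bacteria at an adjusted p under 0.05 with edgeR. Mmp10, stromelysin 2, a protease of migrating keratinocytes, was at 6.45, 10.3, 9.94 and 10.7 CPM in vehicle, 2.3, 2.6, 2.25 and 2.44 CPM with A. faecalis, and 21.1, 24.8, 21.4 and 17.6 CPM with S. aureus. None of the 3 groups overlapped. It fell with A. faecalis by 1.96 on the log2 scale (adjusted p = 0.000994) and rose with S. aureus by 1.18 (adjusted p = 0.00648), so that the average was -0.39 (adjusted p = 0.301) and its sign turned to 0.33 in a model with all bacterial libraries as 1 group.

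Colq, the collagen-like tail that anchors acetylcholinesterase, did the reverse, at 3.31, 2.62, 2.62 and 2.64 CPM in vehicle, 10.5, 8.76, 8.78 and 7.04 CPM with A. faecalis, and 1.72, 1.87, 1.22 and 1.52 CPM with S. aureus. It rose with A. faecalis by 1.65 (edgeR adjusted p = 0.0038) and fell with S. aureus by 0.82 (adjusted p = 0.0209), leaving an average of 0.41. Colq and Mmp10 were the 2 genes called in the comparison of A. faecalis with vehicle. Mmp3, stromelysin 1, averaged 213 CPM in vehicle, 153 CPM with A. faecalis and 715 CPM with S. aureus, and Mmp13, collagenase 3, 69.8, 15.4 and 115 CPM. Their averages were 0.63 (0.39 without vehicle replicate 3) and -0.73 (-0.37 without vehicle replicate 4), and each differed between the bacteria (adjusted p = 0.00154 and 0.00146).

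**Figure D5:**
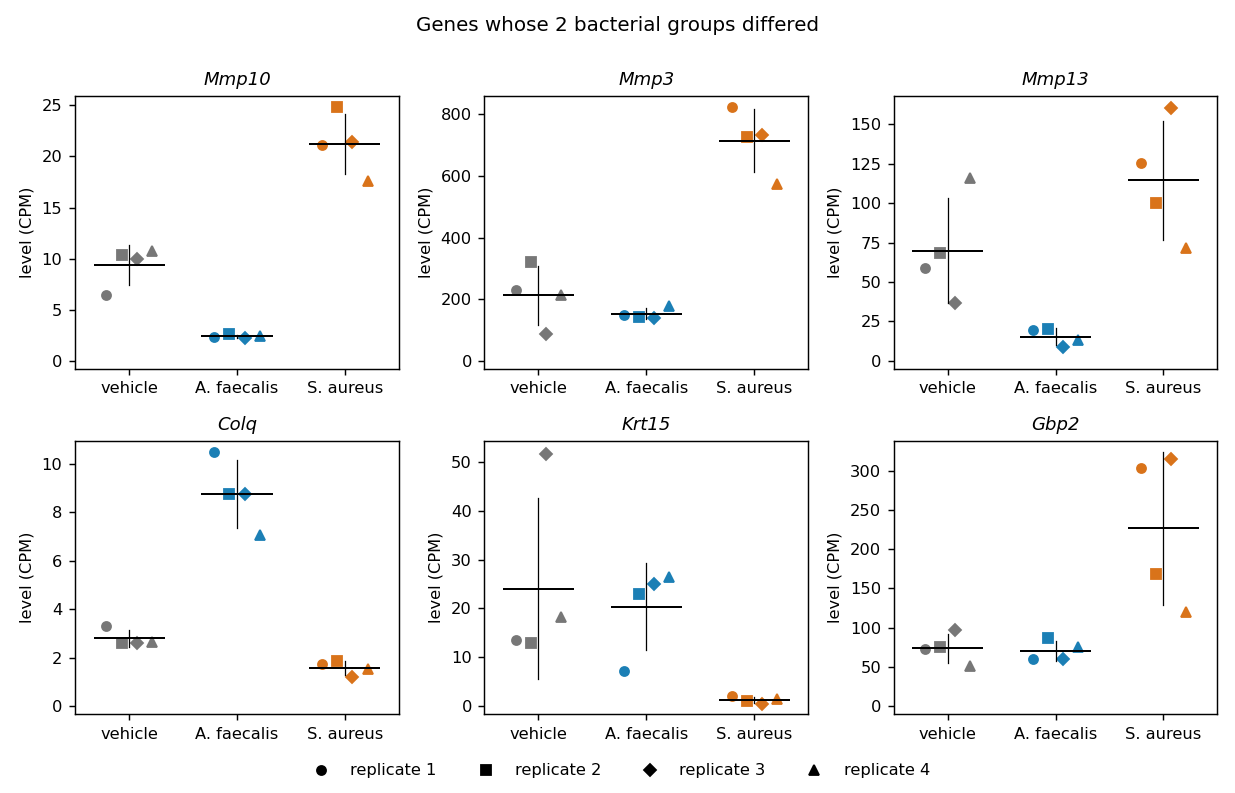
Level of 6 genes (CPM, linear axis) in each library of the 3 groups; marker shape gives the replicate number, horizontal bars the mean and vertical lines 1 SD of 4 libraries, drawn down to no lower than 0. Mmp10 and Colq lie on opposite sides of vehicle with A. faecalis and S. aureus, whereas Krt15 and Gbp2 stand apart in the S. aureus libraries.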

How the data were processed

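RNA from day-3 wounds of 12 mice (3 groups, 4 libraries each) was analysed from the deposited table of estimated counts per gene, made by the authors; the submitters' processing notes name kallisto 0.48.0, FastQC 0.12.1, R 4.1.3, DESeq2 1.34.0 and GRCm39 without giving roles. No source used here gives how transcripts were summed to genes. One of 29957 entries had no name (0.00909 to 0.0151% of a library) and was left out. Counts were rounded, scaled by TMM (factors 0.911 to 1.07), filtered with filterByExpr (minimum count 10, minimum total 15) and tested two-sided with edgeR 4.0.16 (robust quasi-likelihood; R 4.3.3). Calls had a Benjamini-Hochberg adjusted p under 0.05 over 18218 genes. limma 3.58.1 (voom) and DESeq2 1.42.0 were alternatives. Scripts were tested on simulated data. The comparison, the gene lists and the rule for named genes were chosen with earlier results of these data known. The rule took the 12 higher and 12 lower non-overlapping genes of at least 1 CPM by smallest p, 3 members of each list by smallest p, and Colq, Mmp10, Mmp3 and Mmp13; some genes it named are not reported here. No 2 libraries of a group agreed within sampling noise.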

Additional observations from a re-analysis of the deposited data

Results flagged for a closer look

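A library was singled out where its gap to the nearest library of its group, as a share of the range of the 4, passed Dixon's 95% critical value. This held in 25 of 219 groups (73 genes in 3 groups), where chance gives about 1 in 20; 7 of the 25 were in vehicle replicate 3. That library was highest for Krt15 (share 0.863), Flg2 (0.86), Car3 (0.887), Lep (0.913) and Cfd (0.889), and lowest for Lxn (0.957) and Hbb-bt (0.87). Elsewhere in the vehicle group, replicate 1 was highest for Colq (0.968) and lowest for Wdr77 (0.854), and replicate 4 was highest for Ccl24 (0.84). With A. faecalis, replicate 1 was highest for Car3 (0.924) and lowest for Fam206a (0.856), and replicate 3 was highest for Rnase4 (0.911). With S. aureus, replicate 1 was highest for Car8 (0.887), Car3 (0.855), Cd4 (0.855) and Rnase4 (0.866) and lowest for Tnfrsf1a (0.905). Replicate 2 of that group was highest for Camp (0.829) and Ltf (0.937) and lowest for Hba-a2 (0.865) and Epx (0.849). Its replicate 3 was highest for Csf1 (0.831), and its replicate 4 was lowest for Itgb4 (0.843) and Serpina3g (0.897).

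The bacterial groups differed from each other at an adjusted p under 0.05 with edgeR's quasi-likelihood test in 22 of the 73 genes. The log2 difference, S. aureus minus A. faecalis, was above 0 for Tmem173 (0.33), Lama3 (0.845), Selp (1.42), Sele (0.824), Serpina3g (1.42), Mmp10 (3.15), Mmp3 (2.23), Mmp13 (2.89), Tnfrsf1a (0.311), Il17ra (0.778), Gbp2 (1.68), Kit (1.21), Itgb6 (1.13) and Epx (2.48). It was below 0 for Krt15 (-3.98), Flg2 (-2.33), Icam1 (-0.8), Tnip3 (-1.98), Cd4 (-0.974), Colq (-2.47), Skint1 (-1.42) and Mill1 (-1.55).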

How the results depend on the processing

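The DESeq2 Wald test called 230 genes, 217 with both bacterial groups on the same side of vehicle; limma-voom, upper-quartile scaling, DESeq2 size factors, no filter on low counts, a minimum mean of 1 CPM, a threshold of 0.1 and a model with all bacterial libraries as 1 group each left 0 called, and the cause of the difference between tools was not tested. Leaving out 1 library gave 0 to 14 called genes, 0 to 14 on the same side of vehicle (14 without vehicle replicate 2, 3 without vehicle replicate 4) and 88 to 327 non-overlapping genes, a count that grows when fewer libraries must be separated. Of 1456 values of 73 genes under the alternatives, 1413 kept direction and side of the threshold, 42 passed it (38 genes by DESeq2, and Lama3, Selp, Mgl2 and Myh3 also without vehicle replicate 2) and 1 changed sign, Mmp10 at 0.33 in the model with 1 bacterial group. Replicate numbers did not pair the libraries (3 of 12 same-numbered pairs correlated above 0.1, and 4 of 12 libraries correlated best with their own number); with the replicate block 0 genes were called and 39 of the 144 named genes, against 41, differed between the bacteria. Genes at an unadjusted p under 0.05 were 34.6% higher in the main test, 43.5% by DESeq2, 46.2% with the replicate block and 49.4% without vehicle replicate 3. The median SE over all genes was 0.149 on the log2 scale. At levels under 0.1 CPM, as for Epx in vehicle, a value rests on few counts even at 38.4 to 71.3 M counts per library.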

Other observations

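Further genes were looked at after their values had been seen, so the tests of Myh3, Skint1, Mill1 and Epx listed above describe these libraries and support nothing. Myh3, the embryonic myosin heavy chain of regenerating muscle, was at 6.37, 1.86, 14.9 and 4.37 CPM in vehicle, 1.15, 2.91, 2.55 and 1.64 CPM with A. faecalis, and 0.418, 0.898, 0.686 and 0.437 CPM with S. aureus, an average difference of -2.61 that was -1.88 without vehicle replicate 3. All S. aureus libraries lay below the others, and A. faecalis overlapped the second vehicle library. Myog, a transcription factor of differentiating myoblasts, averaged 12.5 CPM in vehicle.

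Skint1, a selecting protein for the T cells that live in mouse epidermis, was at 1.67 to 3.56 CPM in vehicle, 1.12 to 2.08 CPM with A. faecalis and 0.47 to 0.722 CPM with S. aureus (average difference -1.31, of which -0.60 with A. faecalis and -2.02 with S. aureus). Mill1, an MHC class I-like gene of skin, had the same order, -0.62 and -2.17. Epx, eosinophil peroxidase, was near 0 in vehicle (0 to 0.0383 CPM), at 0.0317 to 0.1 CPM with A. faecalis and at 0.207 to 0.366 CPM with S. aureus. Other genes of eosinophils were divided in the average contrast. Rnase2a at -3.76, Ear2 at -0.58, Alox15 at -0.81 and Ccr3 at -0.26 lay the other way. Ear6 at 0.94, Ear1 at 0.80, Prg2 at 0.43 and Siglecf at 0.29 lay on the same side as Epx.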
